A study of Homo sapiens with 21 samples.

Results

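The transcription factor NRF2 (encoded by NFE2L2), its inhibitor KEAP1 and 8 of the antioxidant genes that NRF2 drives were measured by RNA-seq in 21 xenograft tumors of A549 cells, a human lung adenocarcinoma line. These 10 genes, of 60651 in the count table, are NFE2L2, KEAP1, GCLC, GCLM, SLC7A11, TXNRD1, SRXN1, NQO1, HMOX1 and OSGIN1. All 10 passed the filter on low counts in each comparison. They were chosen by name as NRF2 pathway genes at a time when the log2 fold changes of Oxy186-treated samples r1-r4 against the control group were already known, so that contrast is given as a description, with no test.

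Luciferase-expressing A549-Luc2 cells grew under the skin of female athymic nu/nu mice aged 6 to 8 weeks, which lack mature T cells. The control group (7 tumors) received only the oral formulation, while the other mice received Oxy186 (7 tumors) or Oxy210 (7 tumors), semisynthetic oxysterols, by daily gavage at 50 mg/kg. Tumors are numbered r1 to r7 within a group, and no label says which of them came from separate mice of the 10 per group, so p-values measure the spread between these tumors. Every group shares 1 cell line, in which KEAP1 carries a mutation known to inactivate the protein, and the study set Oxy186-treated samples r1-r4 apart from r5-r7 on their measured expression.

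NRF2 is a leucine zipper factor that pairs with small MAF proteins on antioxidant response elements. KEAP1 normally holds NRF2 in the cytoplasm and hands it to the CUL3 ubiquitin ligase for degradation, and oxidants or electrophiles break this hold. Loss of KEAP1 function is common in lung adenocarcinoma and leaves NRF2 active, which raises enzymes of glutathione synthesis, of the thioredoxin system and of drug detoxification.

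Each tumor gave between 13787493 and 17865119 counts on human genes (median 15031344), with overlap between all groups. The 9 epithelial and NRF2-driven markers of A549, which include KRT8, KRT18 and AKR1B10, summed to between 14740.9 and 27234.7 CPM (counts scaled to a common library total), and CDKN2A, deleted in A549, had 0 counts in all 21 tumors. Stroma and leukocyte genes, which mouse reads could imitate, summed to 88.5 to 275 CPM, and 8 of 15 of them, including the defining leukocyte marker PTPRC, had a median under 1 CPM. Highest of the 15 were the stroma genes LUM, with a median of 93.6 CPM over the 21 tumors (35.3 to 237), and COL1A1, with 39.0 CPM (18.1 to 69.1). RNA of bulk tumors cannot separate fewer cells from less RNA per cell. Libraries also differed in how counts changed with the GC content of genes: the slope ran from -0.51 to 0.49 log2 CPM per 10 points of GC, and was -0.51 to -0.18 in Oxy186-treated samples r1-r4 against -0.15 to 0.40 in the control group.

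To compare levels between genes, CPM was divided by the length of exon that no other counted gene covers. This length takes in the annotated exons of a gene, whether or not these tumors use them, and ran from 236 bases in SRXN1 to 9228 in NFE2L2. The exons came from a later GENCODE release than the one used for counting. The order of genes given here depends on these lengths, and whether it holds with the lengths of the expressed transcripts was not tested. NQO1, a quinone reductase and the classical NRF2 target, was the highest with a median of 396 CPM per kb (range 281 to 588 over the 21 tumors), and TXNRD1, the cytosolic thioredoxin reductase, followed at 164 CPM per kb (122 to 229). NQO1 exceeded TXNRD1 in 21 of 21 tumors, and the lowest TXNRD1 value exceeded the highest value of each of the other 8 genes. SRXN1 came next at 26.1 CPM per kb, but with a range of 1.02 to 76.4 that held the next 7 medians. Its place rests on the assumption that only its unshared bases were counted, which the sources do not state. AL121758.1, the counted gene that covers its other exon bases, had 0 to 8 counts per tumor, so few reads there were counted for both genes. Over all its exon bases SRXN1 would be at 2.43 CPM per kb, the lowest of the 10 genes on that scale. That scale applies only if reads on the shared bases were counted for SRXN1. Then came SLC7A11 (21.5), GCLC (17.4), KEAP1 (16.2), GCLM (14.2), NFE2L2 (11.3), HMOX1 (9.81) and OSGIN1 (4.85 CPM per kb). The ranges of neighbours from SLC7A11 down overlapped over the 21 tumors. Within tumors, SLC7A11 exceeded GCLC in 19 of 21, GCLM exceeded NFE2L2 in 19 and HMOX1 exceeded OSGIN1 in 16, whereas GCLC exceeded KEAP1 in only 12, KEAP1 exceeded GCLM in 13, and NFE2L2 exceeded HMOX1 in 11.

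**Figure D1:**
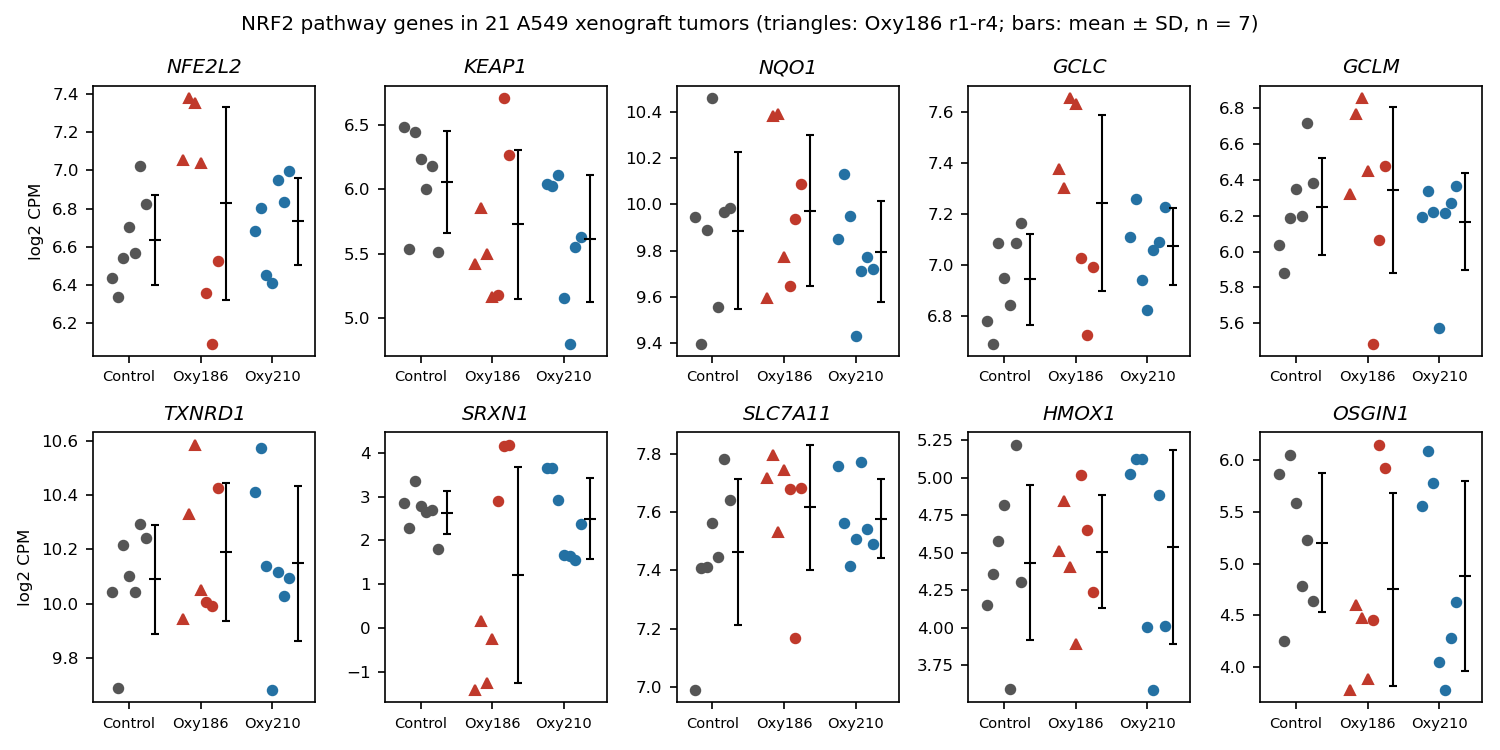
Level of each of the 10 NRF2 pathway genes (log2 CPM, y axis) in the 7 Control, 7 Oxy186 and 7 Oxy210 tumors, 1 point per tumor, with triangles for Oxy186 r1-r4 and bars for the mean ± SD of each group (n = 7). The groups overlap for every gene, while SRXN1 splits the Oxy186 tumors into 4 below and 3 within or above the control range, and the 4 triangles of NFE2L2 and GCLC lie above every control point.

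The plot of levels by tumor shows NFE2L2 and KEAP1 first, the regulator and its inhibitor. NFE2L2 (chr2:177218667-177392756, GRCh38, minus strand) had 80.5 to 130 CPM in the control group (median 94.8), 68.0 to 166 in Oxy186-treated samples (median 132) and 84.8 to 128 in Oxy210-treated samples (median 112). All 3 groups overlapped. In the Oxy186 group r1 to r4 had 133, 166, 163 and 132 CPM, above each control tumor, and r5 to r7 had 81.7, 68.0 and 91.8 CPM, within or below the control range. KEAP1 (chr19:10486125-10503558, minus strand) had 45.6 to 89.4 CPM in the control group (median 72.5), 35.8 to 104 with Oxy186 (median 45.1) and 27.8 to 69.0 with Oxy210 (median 49.3). Its highest value in the series, 104 CPM, and one of its lowest, 35.8 CPM, both belonged to Oxy186-treated tumors (r6 and r4). Of the exon bases of NFE2L2, 38.4% also lie in exons of other counted genes, mostly HNRNPA3 on the opposite strand, whereas KEAP1 shares none.

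Glutathione is made from cysteine in 2 steps, of which glutamate-cysteine ligase, the product of GCLC (catalytic) and GCLM (modifier), performs the first, and SLC7A11 is the cystine importer that feeds it. GCLC (chr6:53497341-53616970, minus strand) had 103 to 143 CPM in the control group (median 124), 106 to 201 in the Oxy186 group (median 158) and 113 to 153 in the Oxy210 group (median 136). As with NFE2L2, Oxy186-treated samples r1 to r4, at 166, 158, 201 and 198 CPM, all exceeded the control tumors, while r5 to r7 (130, 106 and 127 CPM) did not. GCLM (chr1:93885199-93909456, minus strand) was at 58.9 to 105 CPM in the control group (median 73.3), 44.7 to 116 with Oxy186 (median 87.3) and 47.6 to 82.2 with Oxy210 (median 74.4), with full overlap. For SLC7A11 (chr4:138164097-138242349, minus strand) the ranges were 127 to 220 (median 174), 144 to 222 (median 205) and 170 to 218 CPM (median 186) in the same order. SLC7A11 was the least variable of the 10 genes over the 21 tumors (SD of log2 CPM 0.21, against a median of 0.32 over 13608 expressed genes).

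TXNRD1 reduces thioredoxin, and SRXN1, sulfiredoxin, returns overoxidized peroxiredoxins to their active form. TXNRD1 (chr12:104215779-104350307, plus strand) had 826 to 1254 CPM in the control group (median 1100), 984 to 1537 with Oxy186 (median 1059) and 820 to 1525 with Oxy210 (median 1109), so its groups overlapped almost entirely. SRXN1 (chr20:646615-653200, minus strand) had 3.38 to 10.1 CPM in the control group (median 6.30) and 2.81 to 12.5 CPM in the Oxy210 group (median 5.04). In Oxy186-treated samples r1 to r4 it was at 0.241, 0.987, 0.283 and 0.702 CPM, all below every other tumor of the series. In r5 to r7 it was at 7.34, 17.5 and 18.0 CPM, and the last 2 were the highest values of the series. The low values rest on few reads, with 4, 14, 4 and 11 counts in r1 to r4 (95% exact Poisson interval for 4 counts, counting error only, 1.09 to 10.2), against 48 to 179 in the control group. The SD of SRXN1 over the 21 tumors, 1.61 on the log2 scale, was the largest of the 10 genes.

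NQO1 reduces quinones, HMOX1 opens the heme ring, and OSGIN1 encodes an oxidative stress-induced growth inhibitor. NQO1 (chr16:69706996-69726668, minus strand) had 674 to 1409 CPM in the control group (median 987), 773 to 1345 with Oxy186 (median 981) and 689 to 1122 with Oxy210 (median 873). HMOX1 (chr22:35380361-35394214, plus strand) was at 11.9 to 37.1 CPM (median 20.3), 14.7 to 32.3 (median 22.6) and 11.9 to 34.7 (median 29.4) in the same order. For both genes each treated group overlapped the control group. OSGIN1 (chr16:83931311-83966332, plus strand) spanned 18.9 to 66.1 CPM in the control group (median 37.3), 13.6 to 70.9 in the Oxy186 group (median 22.1) and 13.6 to 67.8 in the Oxy210 group (median 24.6). Within the Oxy186 group r1 to r5 were between 13.6 and 24.1 CPM for OSGIN1, and r6 and r7 were at 70.9 and 60.8 CPM, the same 2 tumors that were highest for SRXN1.

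Does treatment with Oxy186 change these genes when all 7 treated tumors are compared with the control group? None of the 10 genes met the threshold, which asked for more than a 2-fold difference together with a Benjamini-Hochberg adjusted p no higher than 0.05. The largest estimates were a GCLC level 1.24-fold higher, log2 fold change 0.31 ± 0.15 (SE, 95% interval -0.000781 to 0.61, edgeR adjusted p = 0.862), and an OSGIN1 level 1.24-fold lower, -0.31 ± 0.38 (adjusted p = 0.878, edgeR). NFE2L2 itself differed by 0.23 ± 0.19 and KEAP1 by -0.28 ± 0.24 (edgeR adjusted p = 0.862 for both). For 8 of the 10 genes the 95% interval lay between -0.78 and 0.64 on the log2 scale, inside 2-fold. That of OSGIN1 reached -1.10, and that of SRXN1 ran from -1.54 to 1.53 around an estimate of -0.0039. A 2-fold change of SRXN1 in either direction therefore lay inside its interval. This estimate compares mean counts, to which r6 and r7 (258 and 246 counts) add most in the Oxy186 group. The SRXN1 median was 0.987 CPM with Oxy186 against 6.30 in the control group, and its mean log2 CPM was 1.21 against 2.63. The SRXN1 estimate also depended on the fit: it was -1.38 with the replicate number as a block and -1.18 with the block and GC offsets (the GC trend of each library removed), against 0.11 with offsets on unshared GC content, all without a call.

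In that comparison 0 of 16291 genes were called by edgeR (0%), with 618 at an unadjusted p under 0.05, and limma voom and DESeq2 also called 0. Of the 10 genes, 0 reached an unadjusted p under 0.05. The pooled values average tumors that stood apart: when r5-r7 alone were set against control tumors, log2 fold changes were -0.33 for NFE2L2, -0.22 for GCLM, -0.04 for GCLC, 0.07 for KEAP1, 0.34 for OSGIN1 and 1.15 for SRXN1. These tumors were set apart on their expression, so the values are a description with no test.

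**Figure D2:**
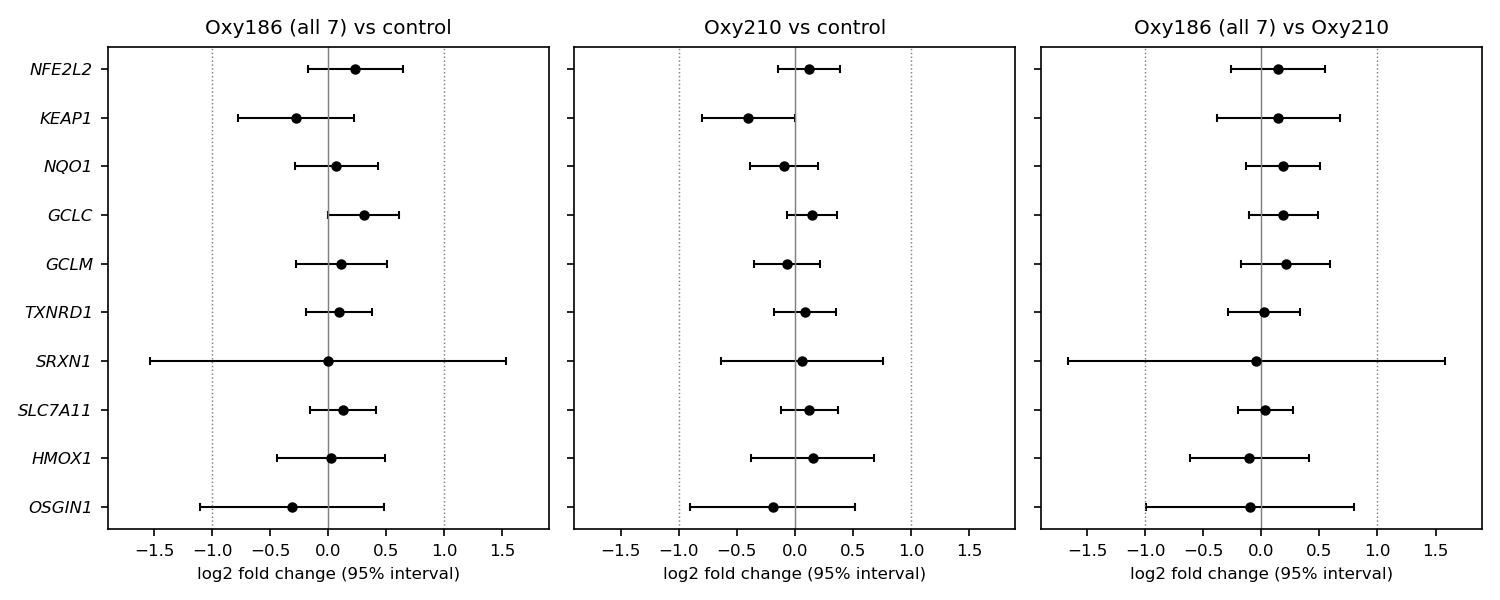
Log2 fold change of each of the 10 genes (points) with its 95% interval (bars) from edgeR, in 3 panels for all 7 Oxy186 tumors against control, Oxy210 against control and Oxy186 against Oxy210. Dotted lines mark 2-fold. Every point lies between -0.40 and 0.31, and the intervals of SRXN1 are the widest in both panels with Oxy186.

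Oxy210 against control likewise gave no call among the 10 genes. KEAP1 came nearest, 1.32-fold lower in Oxy210-treated samples (log2 fold change -0.40 ± 0.19, 95% interval -0.80 to 0.000214, edgeR adjusted p = 0.361), and its groups overlapped. HMOX1 (0.16 ± 0.25), GCLC (0.15 ± 0.10), SLC7A11 (0.12 ± 0.12), NFE2L2 (0.12 ± 0.13), TXNRD1 (0.09 ± 0.13) and SRXN1 (0.06 ± 0.33) had estimates above 0. OSGIN1 (-0.19 ± 0.34), NQO1 (-0.09 ± 0.14) and GCLM (-0.07 ± 0.13) had estimates below 0, none past the test (edgeR adjusted p 0.488 or above for these 9). For all 10 genes the intervals lay between -0.90 and 0.76, inside 2-fold. Over all genes edgeR called 0 of 16396 (0%), with 2270 at an unadjusted p under 0.05, limma voom called 0, and DESeq2 called 22, of which 0 were among the 10. At an unadjusted p under 0.05 stood 0 of the 10 genes.

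The compounds were also compared with each other, 1 pair at the same dose and schedule. Of the 10 genes 0 were called, and 7 had estimates above 0, that is higher with Oxy186. The largest was GCLM at 1.16-fold (0.21 ± 0.18, 95% interval -0.17 to 0.59, edgeR adjusted p = 0.9996), followed by NQO1 (0.19 ± 0.15, interval -0.13 to 0.51) and GCLC (0.19 ± 0.14, interval -0.11 to 0.48). Intervals of the 10 genes except SRXN1 lay between -0.99 and 0.79, so that a 2-fold difference between the compounds lay outside them, while that of SRXN1 was -1.67 to 1.58. Over all genes edgeR called 0 of 16361 (0%), with 664 at an unadjusted p under 0.05, and limma voom and DESeq2 called 0. With the replicate block the SRXN1 difference was -1.19, and -1.01 with the block and GC offsets, without a call. With Oxy186 r5-r7 alone it was 1.11, again as a description.

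Other genes of the pathway were followed in lists of 34 further NRF2 targets, 19 regulators and partners of NRF2 or KEAP1, and 24 other antioxidant genes. No gene of these lists met the threshold, and none reached an adjusted p of 0.05 by itself, in any of the 3 comparisons (edgeR). Against control, and among genes with a mean log2 CPM of 1 or more (the limit for each highest and lowest estimate named from these lists), the targets with the largest estimates in the Oxy186 group were EPHX1, a detoxifying epoxide hydrolase, at 0.35 ± 0.22 and ME1, an NADPH-producing malic enzyme, at 0.33 ± 0.21. Ferritin subunits, which store iron, had the lowest estimates, with FTH1 at -0.65 ± 0.64 and FTL at -0.30 ± 0.25. Below that limit UGT1A6, a glucuronosyltransferase, was at 1.03 ± 0.37 and ADH7, an alcohol dehydrogenase, at -0.60 ± 0.37 (both singled out after their values were seen). FTH1 shares 63.2% of its exon bases with BEST1 on the opposite strand and has many near-identical pseudogenes, so its counts are uncertain. Among regulators, the small MAF gene MAFF (-0.51 ± 0.27) and the KEAP1-binding autophagy receptor SQSTM1 (-0.38 ± 0.17) were lowest, and the ubiquitin ligase subunits CUL3 (0.16 ± 0.17) and RBX1 (0.10 ± 0.16) highest. Of the antioxidant genes, MGST1, a microsomal glutathione transferase (0.36 ± 0.19), and GLRX, glutaredoxin (0.21 ± 0.16), had the highest estimates, and the stress gene SESN2 (-0.33 ± 0.22) and the thioredoxin inhibitor TXNIP (-0.31 ± 0.26) the lowest. For all the genes of these lists the edgeR adjusted p was 0.862 or above.

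In Oxy210-treated samples against control most list members lay slightly below 0. Of 33 targets tested, 6 were above 0 (median -0.12), and of 23 antioxidant genes, 3 were (median -0.23), where 51.3% of all genes were above 0 (median 0.01). With GC offsets these were 7 of 33 targets (median -0.09) and 7 of 23 antioxidant genes (median -0.13), and by library size alone 10 of 33 (median -0.06) and 5 of 23 (median -0.16), where all genes had a median of 0.06. ADH7, below the expression limit, was at -1.03 ± 0.45. ALDH3A1, an aldehyde dehydrogenase, had 277 to 660 CPM in the Oxy210 group (median 538) and 544 to 1388 CPM in the control group (median 906), with overlap. Its log2 fold change was -0.80 ± 0.22 (edgeR adjusted p = 0.246). GPX4, the lipid peroxide-reducing glutathione peroxidase, was at -0.50 ± 0.15 (edgeR adjusted p = 0.257) and TXNIP at -0.50 ± 0.26. Further low estimates were those of NR0B1, a nuclear receptor (-0.61 ± 0.31), RXRA, a retinoid receptor (-0.30 ± 0.16), and RBX1 (-0.26 ± 0.13). UGDH (0.22 ± 0.11), the UDP-glucose dehydrogenase, EP300 (0.22 ± 0.12), an acetyltransferase of NRF2, and CAT (0.17 ± 0.11), catalase, were highest in their lists, each followed by ABCC2 (0.15 ± 0.11), BTRC (0.15 ± 0.08) and MGST1 (0.15 ± 0.14) respectively.

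Oxy186 against Oxy210 uses the same 7 Oxy210 tumors as the comparison before it, so low values in those tumors alone place a gene above 0 here, and the counts are not a separate observation. In it 29 of 32 targets tested (median 0.24) and 22 of 23 antioxidant genes (median 0.17) were higher with Oxy186 than with Oxy210, where 48.5% of all genes were (median -0.01). In Oxy186 against control, which does not use these tumors, 21 of 33 targets (median 0.12) and 8 of 23 antioxidant genes (median -0.04) were above 0. Of all genes 48.9% were above 0 there. With GC offsets 29 of 33 targets (median 0.13) and 11 of 23 antioxidant genes (median -0.0073) were above 0, against 52.8% of all genes. Between the compounds UGT1A6, below the expression limit, differed by 1.23 ± 0.37. The 10 genes themselves were less one-sided, with 7 of 10 (median 0.09), and 5 of 19 regulators were above 0 (median -0.12). TXN, thioredoxin, had 382 to 1315 CPM with Oxy186 (median 680) and 328 to 592 CPM with Oxy210 (median 483). The groups overlapped, and the log2 difference was 0.62 ± 0.24 for TXN and 0.61 ± 0.41 for ALDH3A1 (edgeR adjusted p = 0.9996 for both). GLRX differed by 0.50 ± 0.14, with 93.4 to 176 CPM against 78.2 to 99.2 CPM (edgeR adjusted p = 0.876), GPX4 by 0.41 ± 0.18 and the ligase subunit RBX1 by 0.39 ± 0.15. Lowest in their lists were FTH1 (-0.43 ± 0.66), the transporter ABCC3 (-0.06 ± 0.13), MAFF (-0.23 ± 0.25), SQSTM1 (-0.22 ± 0.18), SESN2 (-0.21 ± 0.23) and SOD2 (0.01 ± 0.14), and DPP3, a KEAP1 partner, was at 0.12 ± 0.19. With GC offsets the counts above 0 between the compounds were 28 of 32 and 21 of 23, where 50.0% of all genes were. With r5-r7 alone they were 28 of 33 and 18 of 23 (50.4% of all genes), and by library size alone 26 of 32 and 19 of 23 (39.4%). For r5-r7 alone against control, 18 of 34 targets and 8 of 23 antioxidant genes were above 0, where 48.4% of all genes were. Genes of a list share tumors and regulation and are not independent, so these counts carry no test.

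**Figure D3:**
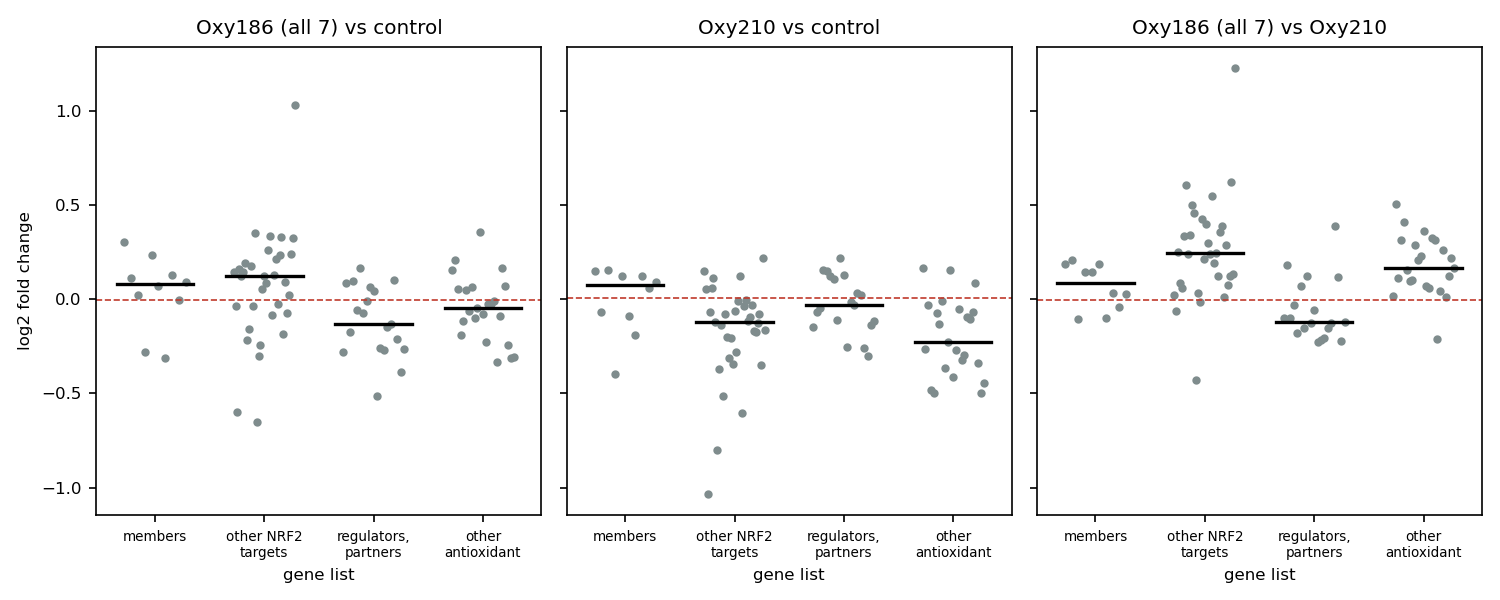
Log2 fold change (y axis) of each tested gene (points) of the 10 NRF2 pathway genes ("members"), other NRF2 targets, regulators and partners, and other antioxidant genes, in 3 panels for the tested comparisons, with the list median as a black line and the median of all genes as a red dashed line. The targets and antioxidant genes sit mostly below 0 in Oxy210 against control (medians -0.12 and -0.23) and mostly above 0 in Oxy186 against Oxy210 (medians 0.24 and 0.17), 2 comparisons that share the Oxy210 tumors.

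The study itself compared Oxy186-treated samples r1-r4 with the control group, and the following values describe these 11 tumors with no test, since the tumors were selected on their expression and the 10 genes with results of this contrast known. NFE2L2 was 1.48-fold higher (log2 fold change 0.56 ± 0.14 SE) and GCLC 1.46-fold higher (0.54 ± 0.13) in r1-r4. GCLM (0.34 ± 0.16), SLC7A11 (0.22 ± 0.14), NQO1 (0.15 ± 0.21), TXNRD1 (0.14 ± 0.16) and HMOX1 (-0.06 ± 0.25) lay nearer to 0. KEAP1 was 1.52-fold lower (-0.60 ± 0.20), OSGIN1 2.17-fold lower (-1.12 ± 0.31) and SRXN1 11.5-fold lower (-3.52 ± 0.40). Thus 2 of 10 genes were past 2-fold lower, where 9.55% of 16852 genes were, and 0 of 10 were past 2-fold higher, where 0.481% were. For OSGIN1 the place relative to 2-fold depended on single tumors, since the count was 1 of 10 without r1 and without r4, and its log2 fold change moved between -1.26 and -0.96 when each of the 4 was left out.

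All 4 tumors lay above every control tumor for NFE2L2 and GCLC (2 of 10, against 3.23% of all genes) and below every control tumor for SRXN1 (1 of 10, against 8.41%). With the GC trend of each library removed, NFE2L2 in r1 (6.95 log2 CPM) and r4 (6.84) lay below Control r6 (7.03). GCLC in r1-r4 (7.25 to 7.46) still lay above every control tumor (highest 7.17). Of the other NRF2 targets 22 of 33 were above 0 in r1-r4 against control as measured (median 0.16), where 50.5% of all genes were (median 0.01). Among these targets 1 was past 2-fold lower (FTH1) and 1 past 2-fold higher (UGT1A6). The log2 fold changes were 1.29 for UGT1A6, -3.09 for FTH1, -1.82 for the small MAF gene MAFK, -0.99 for ALDH3A1, 0.59 for UGDH, 0.63 for MGST1 and 0.67 for ME1 (MAFK and UGT1A6 were singled out after their values were seen).

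Whether the 10 genes moved with the GC content of their exons was examined next, because the libraries r1-r4 differed from control in GC slope. Exon GC ran from 35.4% in SLC7A11 and 38.6% in GCLM to 58.5% in HMOX1, 59.1% in OSGIN1 and 63.4% in KEAP1, while the median of 16990 expressed genes was 47.7% (10% to 90% of genes, 38.5% to 60.8%). After each library's GC trend was entered as an offset, the r1-r4 difference of KEAP1 changed from -0.60 to 0.46 ± 0.13, that of HMOX1 from -0.06 to 0.49 ± 0.25 and that of OSGIN1 from -1.12 to -0.42 ± 0.25. NFE2L2 (0.36 ± 0.12) and GCLC (0.38 ± 0.10) stayed above 0 with smaller values, and GCLM (0.08 ± 0.14), TXNRD1 (0.03 ± 0.14), NQO1 (0.00 ± 0.20) and SLC7A11 (-0.04 ± 0.12) came close to 0. SRXN1 was still at -3.38 ± 0.37, and 1 of 10 genes was past 2-fold lower, where 1.98% of all genes were. For SRXN1 this offset used the GC content of all exon bases (51.7%), of which 90.7% are shared with another counted gene. The offset moved KEAP1 also in the pooled Oxy186 comparison, from -0.28 to 0.23, and HMOX1 from 0.02 to 0.31, both without a call. In Oxy210 against control KEAP1 moved from -0.40 to -0.15.

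**Figure D4:**
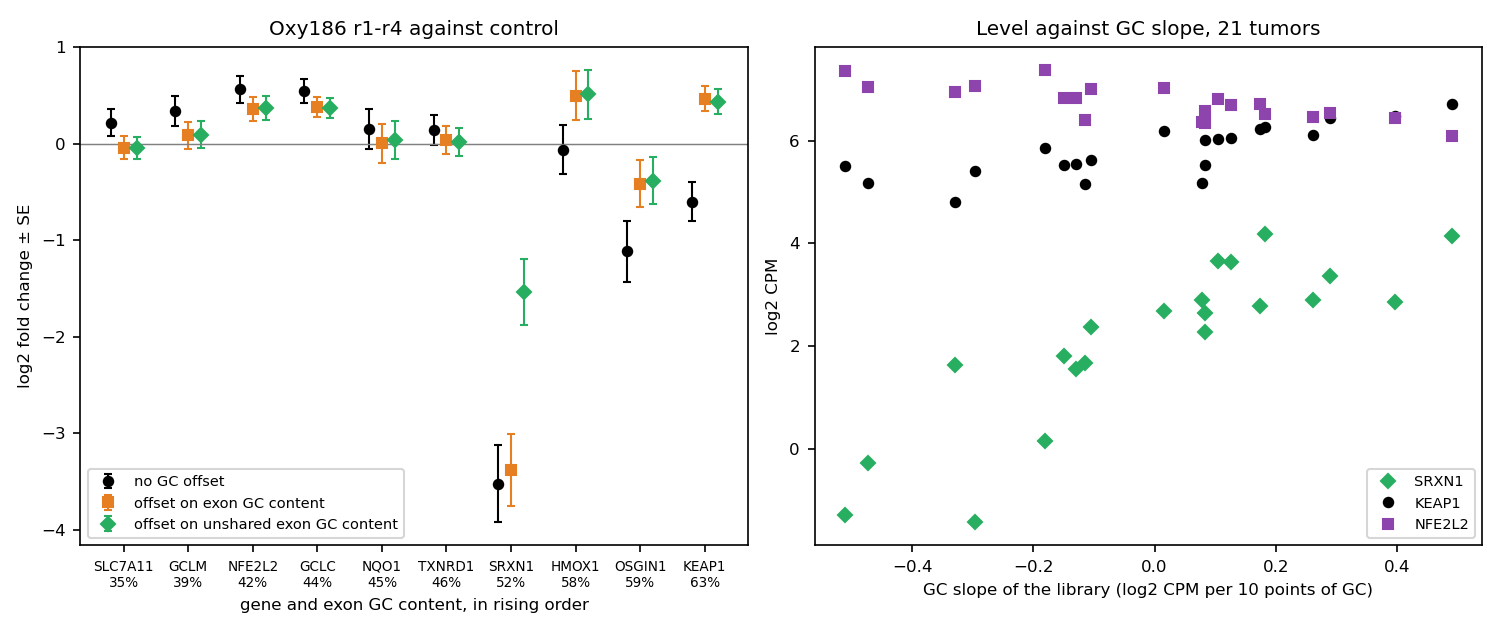
Left, log2 fold change ± SE of Oxy186 r1-r4 against control for each of the 10 genes, ordered by exon GC content (given under each name), with no offset and with 2 forms of GC offset; right, level (log2 CPM) of SRXN1, KEAP1 and NFE2L2 against the GC slope of the library in 21 tumors. KEAP1 changes from -0.60 to 0.46, and SRXN1 changes from -3.38 to -1.54 when the offset uses only the exon bases it does not share.

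SRXN1 has 2 exons, and their sequences are shown because its counts may rest mainly on the first. Of 2528 exon bases, 90.7% also belong to AL121758.1, a longer protein-coding gene on the same strand, which had 0 to 8 counts per tumor. featureCounts leaves out reads that fall on 2 genes unless set otherwise, and the setting used is not stated. Had such reads been counted for both genes, AL121758.1 would have gained the SRXN1 reads of the shared bases. It had at most 8 counts in a tumor, against 48 to 179 for SRXN1 in the control group. Few reads were thus counted for both genes, and SRXN1 may have been counted over as few as its 236 unshared bases. These unshared bases have a GC content of 74.2%, higher than the exon GC of 99.99% of expressed genes, and hold the whole coding part of exon 1 (210 bases, chr20:652976-653185, GRCh38, minus strand). The coding part of exon 2 (201 bases, chr20:648717-648917) lies in the shared stretch. Both are given 5′ to 3′ with runs of 5 or more G or C in capitals:
SRXN1 exon 1: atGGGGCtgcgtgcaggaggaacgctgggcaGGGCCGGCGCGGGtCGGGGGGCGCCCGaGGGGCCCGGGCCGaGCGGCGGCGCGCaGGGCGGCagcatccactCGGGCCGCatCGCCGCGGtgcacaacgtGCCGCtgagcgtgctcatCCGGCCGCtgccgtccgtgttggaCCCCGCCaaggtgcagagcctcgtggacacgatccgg
SRXN1 exon 2: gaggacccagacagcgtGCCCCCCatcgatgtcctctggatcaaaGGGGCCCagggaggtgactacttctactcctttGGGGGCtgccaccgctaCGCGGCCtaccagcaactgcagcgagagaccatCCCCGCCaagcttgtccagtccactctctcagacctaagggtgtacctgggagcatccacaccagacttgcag

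Exon 1 is 76.7% GC, with 31 CG dinucleotides and 11 such runs covering 99 of its bases, the longest 13 bases. Exon 2 is 61.2% GC, with 7 CG dinucleotides and 5 runs covering 34 bases. When the offset used the GC content of unshared bases in place of all exon bases, an alternative added after the data were seen, the r1-r4 difference of SRXN1 was -1.54 ± 0.34 (1 of 10 genes past 2-fold lower, where 1.99% of all genes were). The other 9 genes changed by little between the offsets, with KEAP1 at 0.43 ± 0.13 and NFE2L2 at 0.37 ± 0.12. The 10 tested genes whose unshared GC content lies within 1 point of that of SRXN1 include SRXN1 itself. Their median log2 fold change in r1-r4 was -2.50 (range -4.61 to -1.11), and 1 was below SRXN1. How much of the low SRXN1 value in r1-r4 belongs to base composition was not tested further.

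Across the 21 tumors the levels of SRXN1 (Pearson r = 0.86), OSGIN1 (0.83) and KEAP1 (0.81) were higher in libraries with a higher GC slope, and those of NFE2L2 (-0.79), GCLC (-0.77) and SLC7A11 (-0.62) were lower, while the coefficients of NQO1 (0.04) and TXNRD1 (-0.09) were near 0. These coefficients are descriptions over 21 libraries that share the slope as a common property, and without r1-r4 (17 tumors) they were 0.78 for SRXN1, 0.84 for OSGIN1, 0.87 for KEAP1, -0.68 for NFE2L2, -0.46 for GCLC and -0.66 for SLC7A11.

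The 45 pairs of the 10 genes varied together unevenly. As measured, the median Pearson r over 21 tumors was 0.34, with 12 pairs above 0.5 and 3 below -0.5. The 3 were NFE2L2 with SRXN1 (-0.72), GCLC with SRXN1 (-0.69) and KEAP1 with SLC7A11 (-0.52). KEAP1 and OSGIN1, both GC-rich, had the highest coefficient (0.91), then came NFE2L2 with GCLC (0.84) and with GCLM (0.78), SRXN1 with OSGIN1 (0.76), and NQO1 with TXNRD1 (0.74). With each library's trend on unshared GC content removed, the coefficient of KEAP1 and OSGIN1 was 0.41 and that of SRXN1 and OSGIN1 0.57, whereas NFE2L2 with GCLC stood at 0.74 and NQO1 with TXNRD1 at 0.71. NFE2L2 and KEAP1 changed sides, from -0.36 to 0.72, and KEAP1 with GCLM went from 0.18 to 0.83. NFE2L2 with SRXN1 stood at -0.33, GCLC with SRXN1 at -0.24 and KEAP1 with SLC7A11 at 0.02. The median over pairs was then 0.42, with 15 pairs above 0.5 and 0 below -0.5. Levels of the same tumors share library, depth and base composition, so no p is given.

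**Figure D5:**
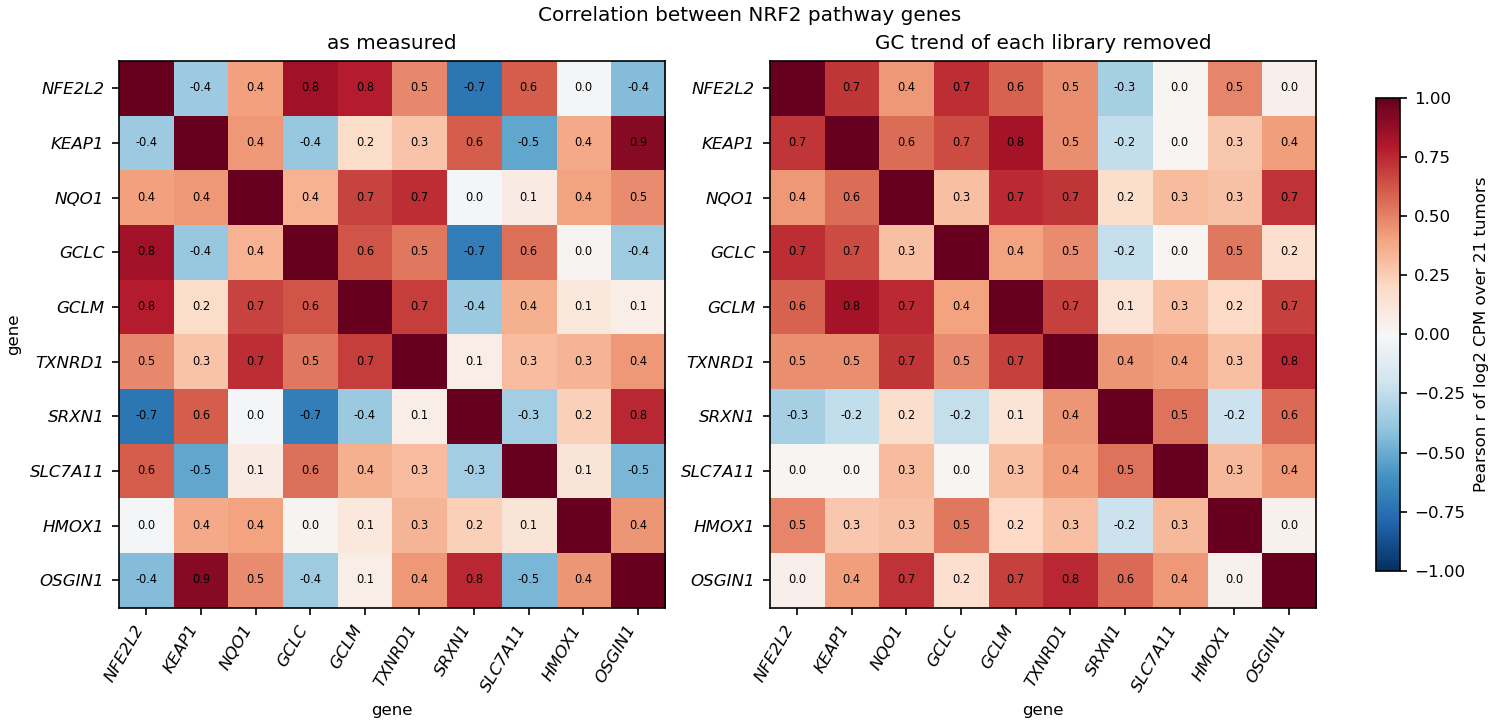
Pearson r of log2 CPM over 21 tumors for each pair of the 10 genes, as measured (left) and with the trend of each library on the GC content of unshared exon bases removed (right); red is positive and blue negative. KEAP1 against NFE2L2 changes from -0.36 to 0.72 and KEAP1 against OSGIN1 from 0.91 to 0.41, while NQO1 against TXNRD1 is 0.74 and 0.71.

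Among 13608 genes whose mean log2 CPM was 1 or more, those with the pattern most like NQO1 over the 21 tumors were AKR1C3 (Pearson r = 0.94), an aldo-keto reductase and itself an NRF2 target in the lists above, VDAC3 (0.94), SUCLG1 (0.92), FDFT1 (0.92) and PTTG1 (0.92). Their exon GC lay between 40.1% and 50.5%. For SRXN1 they were SENP3 (0.96), LINC02875 (0.96), PKN3 (0.95), MYPOP (0.95) and PAQR4 (0.95), of which 4 have an exon GC of 63.9% or above and SENP3 has 54.1%.

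Promoters of 8 of the 10 genes were found in the RefSeq table (GRCh38.p14, 11 windows of 300 bases, from 250 before to 50 after the start of a transcript). The core of the antioxidant response element was searched as TGACNNNGC on both strands. Of the 11 windows 4 held a match, from GCLM, both starts of TXNRD1 and the second start of KEAP1. Of all 35116 windows 13.3% did, and of 30 windows of the other NRF2 targets 9 did. A match describes letters in this window only. The 150 bases before the start of GCLM (chr1:93909431-93909580, minus strand) and of TXNRD1 (chr12:104215629-104215778, plus strand) are shown because these 2 target genes varied together over the tumors (r = 0.69 as measured and 0.68 without the GC trend), with the match in capitals:
GCLM: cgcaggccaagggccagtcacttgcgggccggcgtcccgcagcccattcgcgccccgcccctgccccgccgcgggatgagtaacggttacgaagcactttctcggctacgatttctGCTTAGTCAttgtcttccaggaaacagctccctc
TXNRD1: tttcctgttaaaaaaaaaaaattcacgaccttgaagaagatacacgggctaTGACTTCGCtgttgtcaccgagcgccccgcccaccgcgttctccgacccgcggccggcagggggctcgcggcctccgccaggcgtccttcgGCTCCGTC

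The GCLM match lies 34 bases before the start and reads TGACTAAGC on the opposite strand. For the TXNRD1 start shown, the first match, TGACTTCGC, lies 99 bases before the start. The second, TGACGGAGC on the opposite strand, begins 8 bases before it and ends 1 base past the stretch shown. The window of the second TXNRD1 start (chr12:104286782-104287081), not shown, held 1 match. It reads TGACAAAGC on the opposite strand and lies 102 bases before that start. The window of the second KEAP1 start (chr19:10502722-10503021), not shown, held 2 matches. NQO1, GCLC, NFE2L2, OSGIN1 and SRXN1 had no match in their windows.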

How the data were processed

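Per the labels and the study's methods, RNA with an integrity number above 8 was sequenced, and the authors trimmed reads with Trimmomatic 0.39, aligned them to a combined human (GRCh38.p13, GENCODE 37) and mouse (GRCm39, GENCODE M26) genome with STAR 2.7.6a and counted uniquely mapped human reads with featureCounts (Subread 2.0.1). The values used here are the deposited raw counts per gene. Strand and multi-overlap settings are not given in the sources used here, and the kit named does not mark strand. The deposited log2 CPM table covers only the control group and Oxy186 r1-r4 and was not used.

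Counts were tested with edgeR 4.0.16 (R 4.3.3, quasi-likelihood test, filterByExpr, TMM, group alone), with a call for genes past 2-fold whose p, adjusted by Benjamini-Hochberg across every gene tested, was 0.05 or less. Levels are TMM-scaled CPM, with a prior count of 2 on the log2 scale. Exon GC content, positions and overlaps came from GENCODE 44, and GC trends were splines with 4 degrees of freedom. Limma 3.58.1 (voom), DESeq2 1.42.0, other scalings and filters, one fit of 21 libraries, GC offsets, a replicate block and leaving out each tumor were alternatives; offsets on unshared GC content and Oxy186 r5-r7 alone were added after the data were seen. Replicate numbers did not pair the tumors. Tumors of a group differed by more than counting noise (chi-square per degree of freedom at least 12.2), so no library was counted as a repeat of another; this does not show that tumors came from separate mice. Tested on simulated data with 4-fold changes (a log2 fold change of 2), edgeR recovered 96.8% of 189 changed genes for Oxy186 against control (3 false calls) and 99.5% of 196 for Oxy210 (3 false calls). The changes were set alike in all treated tumors, with no GC slopes and no split within the Oxy186 group. Recovery of smaller changes was not simulated.

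Genes named are the 10 members, any list gene past the test, the 2 largest increases and 2 largest decreases of each list in each comparison whose mean log2 CPM was 1 or more, and the 5 genes most like NQO1 and SRXN1. The 10 genes and the lists were chosen with earlier results of these data known.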

Additional observations from a re-analysis of the deposited data

Results flagged for a closer look

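Of 30 sets of 7 tumors (10 genes in 3 groups), 3 held a tumor far from the other 6 of its group, where chance gives about 1.5 by Dixon's test at its 95% critical value. GCLM in Oxy210 r4 was low, at 5.58 log2 CPM (47.6 CPM), with a gap of 0.784 of the group's range. TXNRD1 in Control r2 was low, at 9.69 log2 CPM (826 CPM), with a gap of 0.584. SLC7A11 in Oxy186 r6 was low, at 7.17 log2 CPM (144 CPM), with a gap of 0.581. That library had the highest GC slope of the 21 (0.49 log2 CPM per 10 points), and with its GC trend removed SLC7A11 was at 7.63, inside the 7.23 to 7.82 of the group. Without the trend GCLM in Oxy210 r4 (5.48) and TXNRD1 in Control r2 (9.72) were still the lowest of their groups. The 3 tumors differ, and the cause was not tested.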

How the results depend on the processing

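Under the alternatives run for each comparison none of the 10 genes was called, but directions, sizes and counts over all genes changed; the cause was not tested. In Oxy210 against control 22 genes were called by DESeq2, 7 without the filter and 1 with the replicate block (TFF2). In Oxy186 against Oxy210, 1 gene, RPL6P27, was called without the filter, with GC offsets, in the fit of all 21 libraries and with the replicate block and GC offsets together, 1 gene with offsets on unshared GC content and 17 with Oxy186 r5-r7 alone, a description since those tumors were set apart on their expression. TFF2 and RPL6P27 belong to no list and were named after their values were seen. In Oxy186 against control 0 genes were called with the replicate block. Replicate numbers showed no pairing: same-numbered tumors correlated by over 0.1 in 0, 4 and 1 of 7 pairs, and 0 correlated best with their own number. Of the genes past 2-fold lower in r1-r4 (2 of 10, SRXN1 and OSGIN1), only SRXN1 was left with GC offsets and with offsets on unshared GC content. With at least 10 counts in every library SRXN1, at 4 counts in r1 and r3, did not pass the filter, and OSGIN1 was left. When each of the 4 tumors was left out, 1 to 2 were left.

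These log2 fold changes turned sign under an alternative, none with a call. For Oxy186 against control they were, with r5-r7 alone, NFE2L2 -0.33, KEAP1 0.067, NQO1 -0.0298, GCLC -0.043, GCLM -0.22, SRXN1 1.15, OSGIN1 0.34, FTH1 0.42, ME1 -0.25, CUL3 -0.28, GLRX -0.17 and MGST1 -0.0801. KEAP1 was at 0.23 with GC offsets, 0.21 on unshared GC content and 0.18 with the replicate block and GC offsets, where GCLM was at -0.013. SRXN1 kept its sign but was at -1.38 with the replicate block and -1.18 with the block and GC offsets (-1.19 and -1.01 between the compounds), and was at 0.11 on unshared GC content, 0.015 by DESeq2, 0.014 by library size alone, 0.011 with RLE normalization and 0.0097 in the fit of all 21 libraries.

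For Oxy210 against control SRXN1 was at -0.15 by limma voom, -0.11 with the replicate block and -0.064 with the replicate block and GC offsets, where SLC7A11 was at -0.0041 (-0.0012 with GC offsets alone). For Oxy186 against Oxy210, r5-r7 alone gave NFE2L2 -0.43, GCLC -0.18, GCLM -0.14, TXNRD1 -0.032, SRXN1 1.11, SLC7A11 -0.074, HMOX1 0.0064, OSGIN1 0.55, FTH1 0.63, ABCC3 0.12, MAFF 0.0598, SQSTM1 0.10, SESN2 0.053 and SOD2 -0.25. Library size alone gave TXNRD1 -0.028, SLC7A11 -0.0067 and SOD2 -0.023. GC offsets gave TXNRD1 -0.0035 and HMOX1 0.053, those on unshared GC content -0.0076 and 0.059, and the replicate block with GC offsets HMOX1 0.05996.

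Leaving out each tumor in turn gave, against control, -0.0105 to 0.18 for NQO1, -0.53 to 0.22 for SRXN1, -0.066 to 0.21 for HMOX1 and -0.014 to 0.20 for RBX1 with Oxy186, and -0.18 to 0.013 for NQO1, -0.13 to 0.024 for GCLM and -0.18 to 0.20 for SRXN1 with Oxy210. Between the compounds it gave -0.068 to 0.24 for KEAP1, -0.0399 to 0.10 for TXNRD1, -0.54 to 0.19 for SRXN1, -0.00702 to 0.10 for SLC7A11, -0.41 to 0.15 for OSGIN1, -0.15 to 0.0203 for ABCC3 and -0.077 to 0.096 for SOD2.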
